A study of Mus musculus with 11 samples.

Results

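Wt1, Lmx1b and Tcf21 are transcription factors of the podocyte, the cell that covers the capillaries of the kidney's filter. Their probe sets were taken from the array's platform annotation, and every probe set named for 1 of these genes was kept. That gave 5 probe sets for the 3 genes, out of 45037 probe sets and 18193 named genes. Wt1 had 1 probe set (1425995_s_at), Lmx1b had 2 (1441729_at and 1421769_at) and Tcf21 had 2 (1417447_at and 1458887_at). The first one given for each gene is its main probe set, the one with the highest mean log2 intensity. According to the platform annotation, 1441729_at and 1458887_at rest on expressed sequence tags, and the other 3 rest on mRNA records.

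The study set kidneys labelled Robo2 homozygous against kidneys labelled wild-type, all from mouse embryos at embryonic day 17, with total RNA of each sample hybridised to 1 Affymetrix array. Robo2 is a receptor for the guidance ligand Slit, and in mouse its loss lets extra ureteric buds form along the nephric duct. The E17R2 arrays comprised 3 Robo2 homozygous samples (replicates 2, 8 and 9) and 3 wild-type samples (replicates 1, 3 and 7). The R2NB arrays comprised 3 Robo2 homozygous samples (replicates 3, 4 and 5) whose letters NB the sources used here do not explain. The R2E17 arrays comprised 1 Robo2 homozygous sample (replicate 6) and 1 wild-type sample (replicate 3). The labels name no Robo2 allele, no strain and no other manipulation shared by the groups. They also do not say whether the samples came from separate animals, so the p-values cover only sample-to-sample spread, part or all of which may be technical. Free-text labels spoke of human brain, against the organism, source and tissue fields, and those fields were followed.

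Wt1 is a zinc finger factor needed for the kidney to form at all. It is present in the cap mesenchyme, which holds the nephron progenitors, and later at high level in podocytes, where it acts on genes of the slit diaphragm. Lmx1b is a LIM homeodomain factor of the podocyte lineage, and its loss in humans causes nail-patella syndrome. Tcf21 is a basic helix-loop-helix factor of podocytes and also of the renal stroma, so a whole-kidney sample mixes both sources. In such bulk samples, fewer cells of a type and less RNA per cell cannot be told apart.

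Values are log2 of the deposited intensities, and differences are Robo2 homozygous minus wild-type. The R2E17 and R2NB arrays had median intensities of 46.8 to 53.2 and the E17R2 arrays of 23.4 to 24.5, with a median shift of 0.97 on the log2 scale over all probe sets. Log2 levels were therefore compared only within each array set, and percentile ranks within an array were used between them. The number of arrays limits the precision. The Robo2 probe set 1458229_at was dim and lay at 2.03, 2.37 and 2.33 in the homozygous E17R2 arrays, against 3.13, 3.68 and 3.16 in the wild-type E17R2 arrays. In the other set it lay at 3.28, 3.86 and 3.99 in the R2NB arrays and at 3.37 in the R2E17 homozygous array, against 3.96 in the R2E17 wild-type array. Of the arrays labelled homozygous in that set, R2NB replicate 5 was thus not below the wild-type array. The sources used here do not say whether the probe set lies in an altered stretch of the gene. Of 6 podocyte markers, Nphs1, Podxl, Synpo and Ptpro were measured, with mean percentiles of 67.8, 96.6, 84.9 and 86.1. The R2E17 wild-type array stood apart in the log2 difference between 3' and 5' control probe sets, with 0.70 for Gapdh and 1.12 for Actb, against -0.01 to 0.22 and 0.34 to 0.75 in the other 10 arrays. It enters every value of the R2E17 pair, and its part in them was not tested.

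In the E17R2 kidneys, the main Lmx1b probe set was lower in all homozygous arrays than in any wild-type array, by 0.74 on the log2 scale on average. The Wt1 probe set was lower on average by 0.35, with overlapping groups, and the main Tcf21 probe set was higher by 0.15. None of the 5 probe sets passed an adjusted p of 0.05 in the fit over all probe sets by limma, which called 0 of 45037 (0.0%) and gave a smallest adjusted p of 0.93. At an unadjusted p under 0.05 that fit held 2257 probe sets, 1243 of them lower and 1014 higher in the homozygous arrays. Lmx1b 1441729_at and Tcf21 1458887_at were among the lower ones. Without wild-type replicate 7, 3 probe sets passed the adjusted and 3567 the unadjusted threshold, and none of the 3 belonged to these factors.

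**Figure D1:**
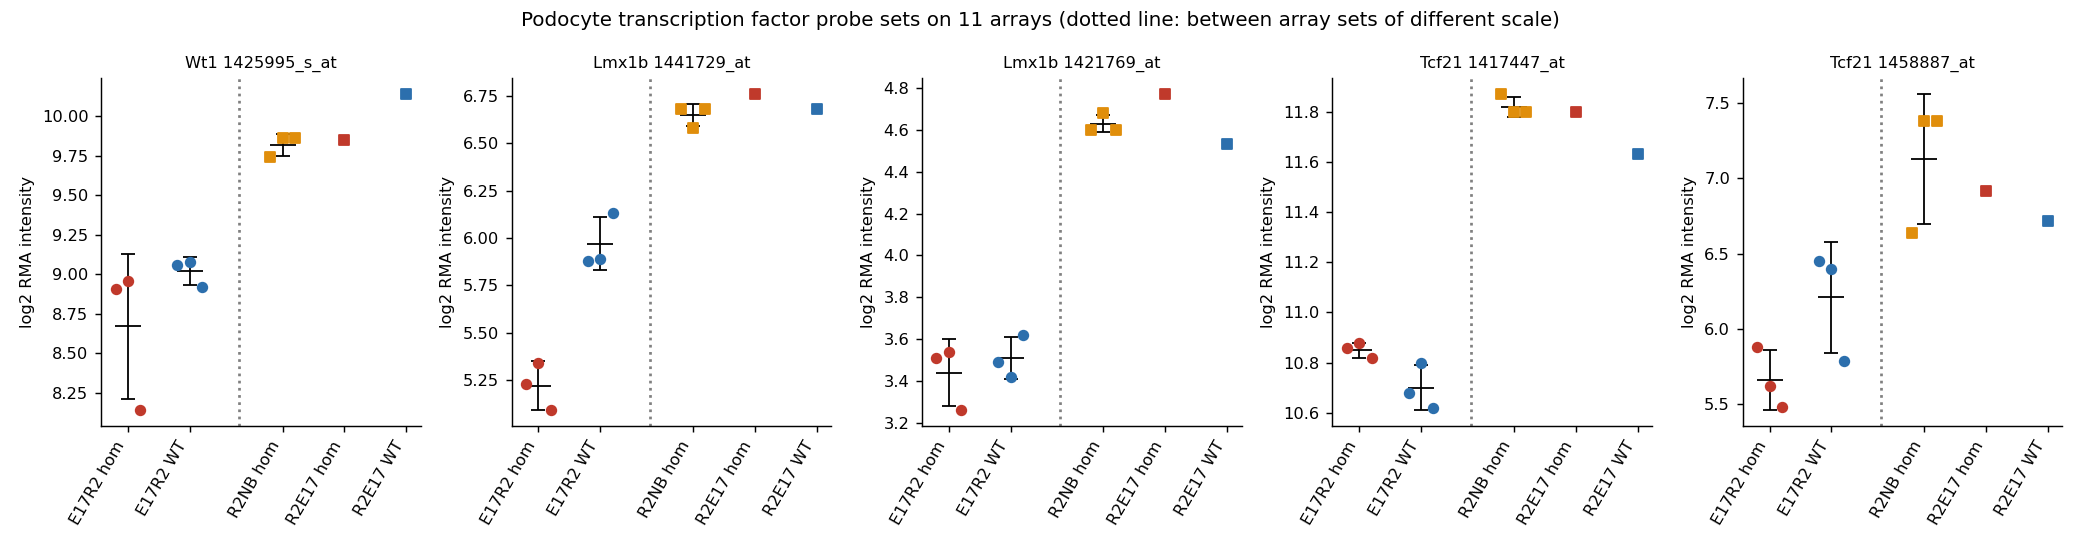
Log2 intensity of the 5 probe sets on each of the 11 arrays, with the mean and SD of each group of 3 as bars and a dotted line between the array sets of different scale. For Lmx1b 1441729_at the 3 homozygous E17R2 arrays lie between 5.09 and 5.34, below the 3 wild-type E17R2 arrays between 5.88 and 6.13, and the y axes differ between panels and do not start at 0.

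Lmx1b 1441729_at measured 5.23, 5.34 and 5.09 in the homozygous E17R2 arrays (5.22 ± 0.13, SD, n = 3). In the wild-type E17R2 arrays it measured 5.88, 5.89 and 6.13 (5.97 ± 0.14, SD, n = 3). The 3 homozygous arrays thus all lay below the 3 wild-type arrays, with a gap wider than the range within either genotype. The difference was -0.74 (SE 0.12, 95% interval -1.02 to -0.47), so that the homozygous intensity was 0.597 times the wild-type one. Its unadjusted p in limma was 0.000294, the fourth smallest of the 45037 probe sets, and its adjusted p was 0.93. Leaving out any 1 of the 6 arrays kept the difference between -0.80 and -0.66, with adjusted p-values of 0.57 to 1.0 from limma. Among all probe sets, 5.87% were lower with non-overlapping groups, and 1 of the 5 examined here was.

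The other Lmx1b probe set, 1421769_at, was dim, at percentiles of 32.6 ± 3.28 in homozygous and 34.4 ± 0.524 in wild-type E17R2 arrays (SD, n = 3 each). It measured 3.51, 3.54 and 3.26 in the homozygous E17R2 arrays, against 3.49, 3.42 and 3.62 in the wild-type E17R2 arrays. The groups overlapped, and the difference was -0.07 (SE 0.11, 95% interval -0.34 to 0.20, adjusted p = 0.966 by limma). Without homozygous replicate 9 it was 0.02. That interval does not contain the -0.74 of the main probe set, so the pair of Lmx1b probe sets gave different sizes for the same gene.

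Wt1 1425995_s_at measured 8.91, 8.96 and 8.14 in the homozygous E17R2 arrays (8.67 ± 0.46, SD, n = 3), against 9.06, 9.08 and 8.92 in the wild-type E17R2 arrays (9.02 ± 0.09, SD, n = 3). Homozygous replicate 8 lay inside the wild-type range, replicate 2 at its lower edge and replicate 9 well below every other array. The difference was -0.35 (SE 0.22, 95% interval -0.86 to 0.15, adjusted p = 0.93 by limma), and the homozygous intensity was 0.784 times the wild-type one. Without homozygous replicate 9 it was -0.08, so that array carried most of the Wt1 difference. The suffix of this probe set marks probes shared by several transcripts, which need not belong to 1 gene. Its signal thus need not come from 1 Wt1 isoform or from Wt1 alone. Wt1os, the antisense neighbour of Wt1, has its own probe set, 1457698_at, and differed by -0.28 (SE 0.28, adjusted p = 0.941 by limma).

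Tcf21 1417447_at was among the brightest probe sets on each array and measured 10.86, 10.88 and 10.82 in the homozygous E17R2 arrays (10.85 ± 0.03, SD, n = 3). The wild-type E17R2 arrays measured 10.68, 10.80 and 10.62 (10.70 ± 0.09, SD, n = 3). The homozygous arrays all lay above the wild-type arrays, by a gap of a few hundredths at its narrowest. The difference was 0.15 (SE 0.09, 95% interval -0.06 to 0.37, adjusted p = 0.93 by limma), a ratio of 1.11. Among all probe sets, 4.68% were higher with non-overlapping groups, and 1 of the 5 examined here was.

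Tcf21 1458887_at ran the other way. It measured 5.88, 5.62 and 5.48 in the homozygous E17R2 arrays (5.66 ± 0.20, SD, n = 3), against 6.45, 6.40 and 5.79 in the wild-type E17R2 arrays (6.21 ± 0.37, SD, n = 3). Homozygous replicate 2 lay above wild-type replicate 7, so the groups overlapped. The difference was -0.56 (SE 0.20, 95% interval -1.02 to -0.10), with an unadjusted p of 0.0238 and an adjusted p of 0.93 in limma. With 1 array left out it ran from -0.77 to -0.44, and with the R2E17 pair added it was -0.37 (unadjusted p = 0.1 in limma). Its unadjusted p was 0.0618 without homozygous replicate 8, 0.0763 without homozygous replicate 9, 0.0849 without wild-type replicate 1 and 0.0799 without wild-type replicate 3, so it lay over 0.05 in 4 of the 6 limma fits. Summed adrenal marker intensities were 1278, 413 and 509 in the homozygous E17R2 arrays, against 4298, 3672 and 452 in the wild-type E17R2 arrays. Wild-type replicates 1 and 3 were thus high in both this probe set and the adrenal markers, and the part of the adrenal markers in the difference was not tested. The intervals of the 2 Tcf21 probe sets did not meet, since this one ended at -0.10 and that of 1417447_at began at -0.06, and the sign of the Tcf21 difference depends on which probe set is read.

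The probe sets of 1 gene also moved apart from array to array. For Lmx1b the 2 probe sets lay on the same side of their own set mean in 3 of the 6 E17R2 arrays and in 1 of the 5 R2E17 and R2NB arrays. Over the E17R2 arrays the main Lmx1b probe set spanned a range of 1.04 on the log2 scale and the dim one 0.36. For Tcf21 the counts were 2 of 6 and 3 of 5 arrays. There the bright main probe set spanned 0.26 over the E17R2 arrays, and 1458887_at spanned 0.97.

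**Figure D2:**
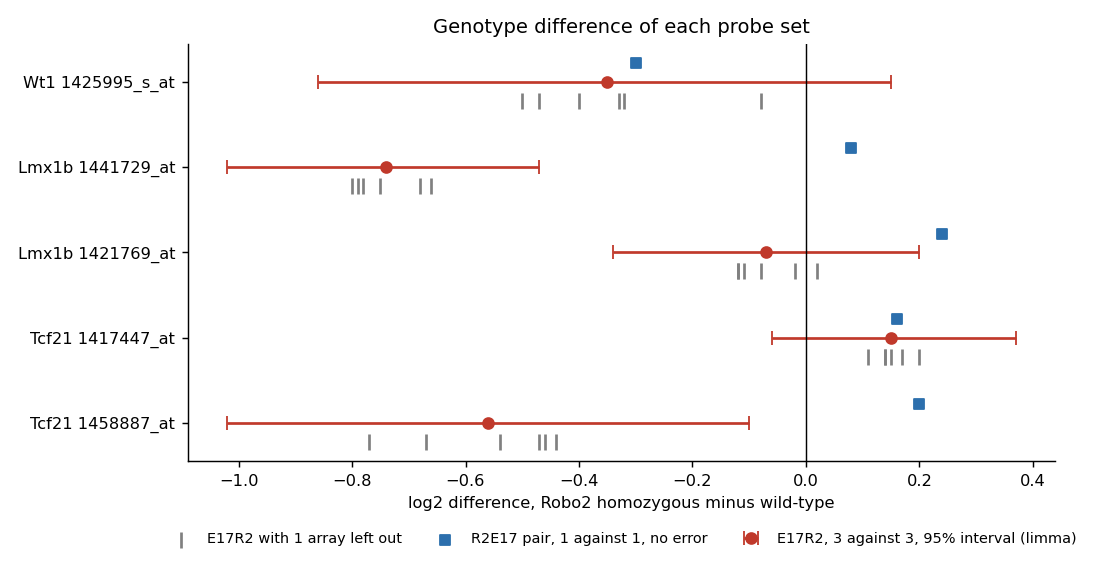
Log2 difference, Robo2 homozygous minus wild-type, for each probe set: the E17R2 difference of 3 against 3 arrays with its 95% interval (circles), the R2E17 pair with no error (squares) and the E17R2 difference with each array left out in turn (ticks). The E17R2 interval of Lmx1b 1441729_at, -1.02 to -0.47, lies below 0, and its R2E17 pair lies at 0.08.

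The R2E17 pair gave the same question a single homozygous and a single wild-type array, with no replicate check. Wt1 measured 9.85 in the homozygous and 10.14 in the wild-type array, a difference of -0.30. Lmx1b 1441729_at measured 6.76 and 6.68 in the homozygous and wild-type arrays of the pair, a difference of 0.08, and Lmx1b 1421769_at differed by 0.24. Tcf21 1417447_at measured 11.80 in the homozygous and 11.63 in the wild-type array, a difference of 0.16, and Tcf21 1458887_at differed by 0.20. Wt1 and the main Tcf21 probe set thus had the same sign in the pair as in the E17R2 arrays, and the other 3 probe sets had the opposite sign. Over all probe sets the median absolute difference was 0.167 in the pair and 0.0967 between the E17R2 group means, so the pair differences of Lmx1b 1441729_at and of both Tcf21 probe sets were no larger, or little larger, than that of a typical probe set.

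The difference between the E17R2 and R2E17 genotype differences was tested in limma over all 11 arrays, with the lone R2E17 arrays assumed to vary like the groups of 3. For Lmx1b 1441729_at it was -0.82 (SE 0.21, 95% interval -1.29 to -0.35), with an unadjusted p of 0.00335 and an adjusted p of 0.203. Over all probe sets, 0.0422% passed the adjusted threshold in this test, and none of the 5 examined here did. For Wt1 it was -0.05 (95% interval -0.95 to 0.84) and for Tcf21 1417447_at it was -0.01 (95% interval -0.37 to 0.35). These intervals are wide against the genotype differences themselves, and they do not show that the array sets agreed. Without E17R2 homozygous replicate 9 the Wt1 value was 0.21. The values for Lmx1b 1421769_at and Tcf21 1458887_at were -0.31 and -0.76, with adjusted p-values of 0.616 and 0.608 in limma.

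The R2NB arrays were set against the R2E17 homozygous array, which carries the same genotype label and has intensities on a like scale. How these arrays were normalized, and whether together, is not stated in the labels. Wt1 measured 9.74, 9.86 and 9.86 in the R2NB arrays (9.82 ± 0.07, SD, n = 3), against 9.85 in the R2E17 homozygous array. Lmx1b 1441729_at measured 6.68, 6.58 and 6.68 in the R2NB arrays (6.65 ± 0.06, SD, n = 3), against 6.76 in the R2E17 homozygous array. Tcf21 1417447_at measured 11.87, 11.80 and 11.80 in the R2NB arrays (11.82 ± 0.04, SD, n = 3), against 11.80 in the R2E17 homozygous array. Each main probe set thus lay close to the level of the R2E17 homozygous array. The differences were -0.03 (95% interval -0.66 to 0.61) for Wt1, -0.12 (95% interval -0.45 to 0.22) for Lmx1b and 0.03 (95% interval -0.23 to 0.28) for Tcf21. Lmx1b 1421769_at measured 4.60, 4.68 and 4.60 in the R2NB arrays against 4.77 in the R2E17 homozygous array, a difference of -0.14. Tcf21 1458887_at was the most variable, at 6.64, 7.38 and 7.38 in the R2NB arrays against 6.92 in the R2E17 homozygous array, a difference of 0.21 (SE 0.34) that ran from 0.09 to 0.46 with 1 R2NB array left out. The adrenal markers summed to 615, 10047 and 2080 in the R2NB arrays, against 584 in the R2E17 homozygous array. Their sum was thus also higher in R2NB replicates 4 and 5 than in replicate 3. The order was not shared throughout, as R2NB replicates 4 and 5 both measured 7.38 in Tcf21 1458887_at. The R2E17 homozygous array, with the lowest of these sums, measured 6.92 there, above the 6.64 of R2NB replicate 3. The part of the adrenal markers in these levels was not tested. All 5 adjusted p-values were 1.0 in limma, where 0.0133% of all probe sets passed.

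Some values in this array set were identical to the last deposited digit. Wt1 had the same deposited value in R2NB replicates 4 and 5. Lmx1b 1441729_at had 1 value in R2NB replicates 3 and 5 and in the R2E17 wild-type array, and Lmx1b 1421769_at had 1 value in R2NB replicates 3 and 5. In the E17R2 arrays each of the 5 probe sets had 6 distinct values. Between arrays of the R2E17 and R2NB set, up to 6872 probe sets were identical, against up to 236 between E17R2 arrays. The spread of the R2NB values may therefore be narrower than that of the RNA, and its part in the SDs above was not tested.

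**Figure D3:**
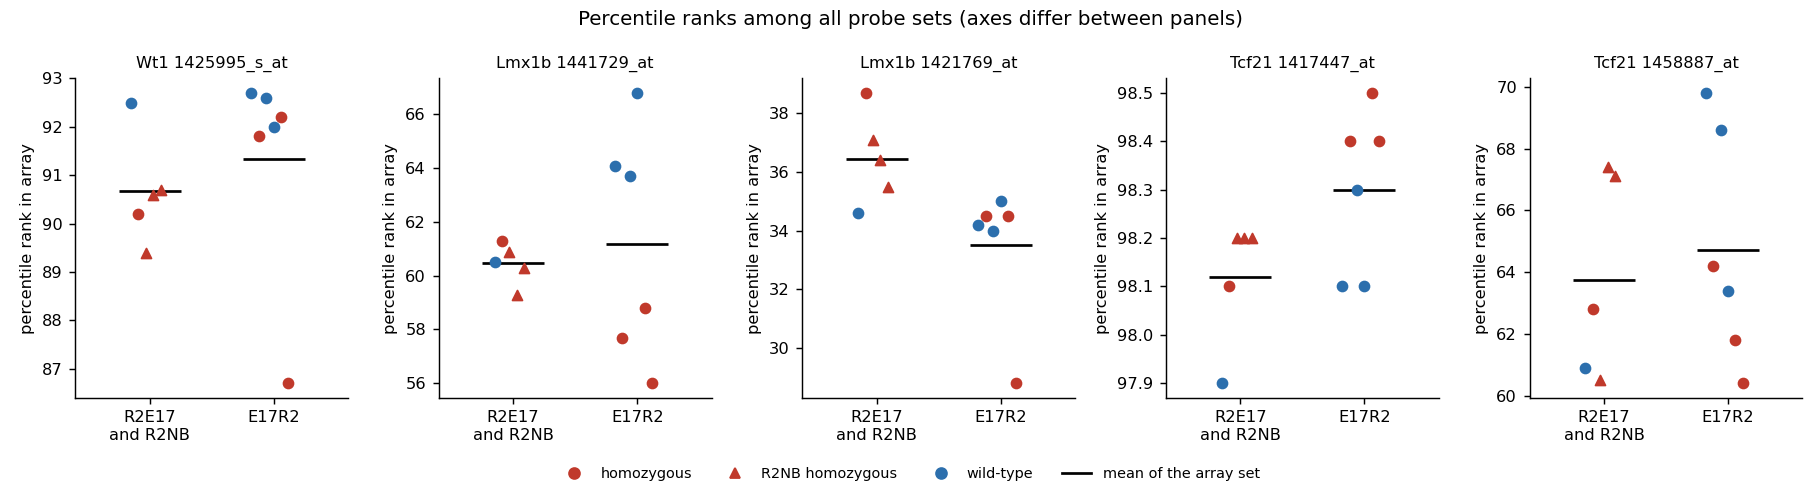
Percentile rank of each probe set among the 45037 on its own array, for the 5 R2E17 and R2NB arrays and the 6 E17R2 arrays, with the mean of each array set as a line. The sets overlap in all 5 panels, the shifts run from -0.992 to 2.95 percentiles, and the y axes differ.

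Percentile ranks put both array sets on 1 scale. Wt1 ranked at 90.2 ± 0.703 in the R2NB arrays and at 90.2 in the R2E17 homozygous array, against 92.5 in the R2E17 wild-type array, and at 90.3 ± 3.07 in homozygous against 92.4 ± 0.372 in wild-type E17R2 arrays (SD, n = 3). In that order both wild-type groups stood above the 3 homozygous groups, but the homozygous E17R2 arrays spread from 86.7 to 92.2 and reached the wild-type values. Lmx1b 1441729_at ranked at 57.5 ± 1.45 in homozygous and 64.9 ± 1.65 in wild-type E17R2 arrays, the lowest and the highest of the 5 groups. Its R2NB arrays at 60.2 ± 0.813, the R2E17 homozygous array at 61.3 and the R2E17 wild-type array at 60.5 lay together between these. Tcf21 1417447_at ranked between 97.9 and 98.5 on every array, and its groups were separated by less than 1 percentile.

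The shift of each probe set between the 5 R2E17 and R2NB arrays and the 6 E17R2 arrays was tested with a 2-sided exact permutation test over the 462 splits of the 11 arrays, whose smallest possible p is 0.00216. Genotype and title were not balanced between the sets, so a shift can hold either, or other differences between the sets. Proximal tubule markers summed to 16077 to 23052 in the R2E17 and R2NB arrays, against 1405 to 4093 in the E17R2 arrays. That step was wider than the median log2 shift of 0.97 over all probe sets, and its part in the rank shifts was not tested. Wt1 averaged 90.7 in the R2E17 and R2NB arrays and 91.3 in the E17R2 arrays, a shift of -0.665 (exact permutation p = 0.61). Lmx1b 1441729_at averaged 60.5 in the R2E17 and R2NB arrays and 61.2 in the E17R2 arrays, a shift of -0.717 (exact permutation p = 0.716). Tcf21 1417447_at shifted by -0.17 (exact permutation p = 0.0736) and Tcf21 1458887_at by -0.992 (exact permutation p = 0.636). Lmx1b 1421769_at averaged 36.4 in the R2E17 and R2NB arrays and 33.5 in the E17R2 arrays, a shift of 2.95 (exact permutation p = 0.0108), unadjusted among 5 such tests. Its ranges of 34.6 to 38.7 and 28.8 to 35.0 overlapped, and the median absolute shift over all probe sets was 3.03. Over all probe sets 16.5% were lower and 15.0% higher in the R2E17 and R2NB arrays with non-overlapping sets, and none of the 5 examined here was either.

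Restricted to the arrays labelled homozygous, the rank of Lmx1b 1441729_at was 60.5 ± 0.855 in the 4 R2E17 and R2NB arrays and 57.5 ± 1.45 in the 3 E17R2 arrays (SD). That shift of 2.98 had an exact permutation p of 0.0286, the smallest that 4 against 3 arrays allow. The homozygous E17R2 arrays were thus the lowest of all 11 arrays for this probe set. Tcf21 1417447_at shifted by -0.239 among the same arrays, and Lmx1b 1421769_at by 4.33, each also with an exact permutation p of 0.0286. That p marks full separation of the arrays, and the share of all probe sets separated in this way was not computed. In the comparison of all 11 arrays, 16.5% of probe sets were lower and 15.0% higher without overlap. That split was of 5 against 6 arrays of both genotypes, so its shares are no background for 4 against 3. The Robo2 probe set was also fully separated among the homozygous arrays, with a shift of 14.2.

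Genes of the mature podocyte were read beside the 3 factors, as a list of 27 slit diaphragm, foot process and basement membrane genes of which 25 were measured. In the E17R2 arrays 21 of the 25 were below 0, with a median difference of -0.12, against 9619 of 18193 genes (52.9%) below 0 and a median of -0.01 over all genes. None passed an adjusted p of 0.05, and 7 were lower and 0 higher at an unadjusted p under 0.05, against 551 lower and 454 higher of all 18193 genes. Ptpro, a receptor tyrosine phosphatase of podocyte foot processes, measured 7.62, 7.79 and 7.26 in homozygous arrays against 8.39, 8.41 and 8.30 in wild-type arrays, and differed by -0.81 (SE 0.14). Nephrin (Nphs1), the core of the slit diaphragm, differed by -0.80 (SE 0.28), podocalyxin (Podxl), which keeps foot processes apart, by -0.62 (SE 0.21) and Sema3g, a secreted semaphorin of podocytes, by -0.60 (SE 0.16). All 4 had non-overlapping groups and an adjusted p of 0.93 in limma. They were named for having the smallest unadjusted p of the list, which favours groups without overlap. In the whole list 6 of 25 were lower without overlap, against 1318 of all 18193 genes. In the R2E17 pair the same genes differed by 0.14, -0.09, -0.14 and 0.03, for Ptpro, Nphs1, Podxl and Sema3g in turn, and the list's median was -0.16. The E17R2 list median was -0.08 without homozygous replicate 9, with 16 of the 25 below 0. There Ptpro differed by -0.66, Nphs1 by -0.50 and Podxl by -0.37. Sulf1 and Col4a5 of the same list were higher over all E17R2 arrays, by 0.88 (SE 0.42) and 0.21 (SE 0.17), with overlapping groups.

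Other transcription factors of podocytes and of their specification, 11 of 13 measured, had a median difference of -0.17. Of the 11, 8 were below 0, against 52.9% of all genes. At an unadjusted p under 0.05, 2 were lower, against 551 of all 18193 genes. Hey1, a Notch target, differed by -0.35 (SE 0.12) and Foxc2, a forkhead factor needed for podocyte differentiation, by -0.39 (SE 0.17). Its paralogue Foxc1 differed by -0.39 and Pax8, a paired box factor of the early nephron, by -0.48. All 4 had non-overlapping groups in the E17R2 arrays and 0 of the 11 passed the adjusted threshold in limma. These 4 were named for having the smallest unadjusted p, which favours groups without overlap. In the whole list 4 of 11 were lower without overlap, against 1318 of all 18193 genes. In the R2E17 pair their differences were 0.26 for Hey1, 0.11 for Foxc2, -0.06 for Foxc1 and -0.32 for Pax8, so the signs were split. Leaving out homozygous replicate 9 gave an E17R2 list median of -0.09, and then Hey1 differed by -0.24, Foxc2 by -0.21, Foxc1 by -0.20 and Pax8 by -0.19.

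Proteins that bind Wt1, Lmx1b or Tcf21 showed smaller differences. All 10 were measured, 6 were below 0, the median was -0.02 and none had an unadjusted p under 0.05. Leaving out homozygous replicate 9 turned the median to 0.02, with 4 below 0. Ldb2 and Ldb1, the LIM domain binding cofactors, differed by -0.18 and -0.10, Tcf4, an E protein partner of basic helix-loop-helix factors, by 0.12, and the Wt1-interacting protein Wtip by -0.08.

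Reported Wt1 targets pointed in both directions, with 15 of 17 measured, 9 below 0 and a median of -0.09. Over all genes 52.9% were below 0. At an unadjusted p under 0.05, 3 targets were lower, against 551 of all 18193 genes. They were Nphs1, Podxl and Scel, an envelope protein also found in podocytes, which differed by -0.29. Higher at that level was 1 target, against 454 of all genes, namely Amhr2, the receptor for anti-Müllerian hormone, by 1.62. Its groups overlapped, and its E17R2 mean was 6.81 ± 1.03 in the homozygous and 5.20 ± 0.92 in the wild-type samples (SD, n = 3 each). Amhr2 is a gene of the gonad, but it did not follow the gonadal genes read below. It measured 7.89 in homozygous replicate 8 and 6.70 in replicate 2, where the gonadal genes summed to 291 and 702. The part of gonadal tissue in its difference was not tested. Reported Lmx1b targets, 4 of 6 measured, were at or below 0 with a median of -0.08 and none at an unadjusted p under 0.05. Among them Col4a4 and Col4a3, collagens of the glomerular basement membrane, differed by -0.31 and -0.07. Without homozygous replicate 9 that list's median was 0.02, so its direction rested on that array.

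**Figure D4:**
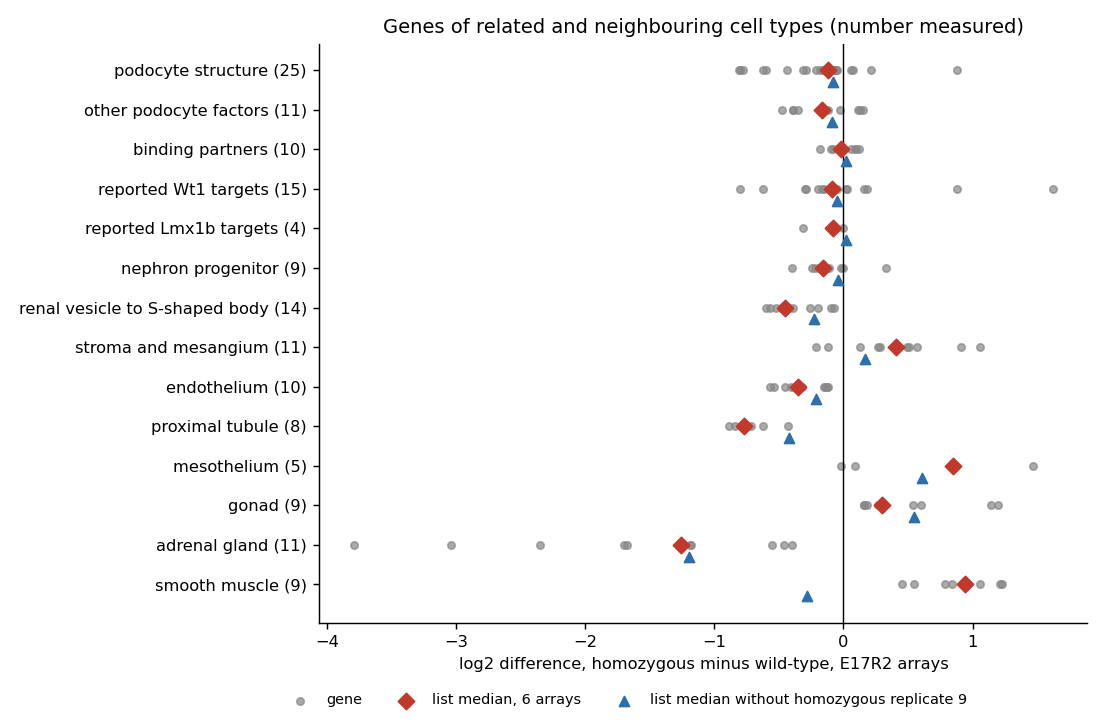
Log2 difference, Robo2 homozygous minus wild-type, in the E17R2 arrays for each measured gene of 14 lists (grey), with the list median over 6 arrays (diamonds) and without homozygous replicate 9 (triangles). The medians of podocyte structure, other podocyte factors, reported Wt1 targets, nephron progenitor, renal vesicle, endothelium, proximal tubule and adrenal lists lie below 0 in both. The smooth muscle median is 0.94 with that array and -0.28 without it.

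Markers of other cell types also differed in level between the genotypes in the same arrays, and their part in the differences of the 3 factors was not tested. Over all 18193 genes, 52.9% were below 0, with 551 lower and 454 higher at an unadjusted p under 0.05. Genes of the renal vesicle and S-shaped body, the stages in which podocyte precursors arise, were below 0 in 14 of 14 measured. Their median was -0.45, and 7 were lower at an unadjusted p under 0.05. Among them Bmper, a regulator of BMP signals, differed by -0.48, the Notch ligand Dll1 by -0.60, the homeobox gene Irx2 by -0.46 and the cadherin Cdh6 by -0.44. Nephron progenitor genes, the other site of Wt1, were below 0 in 8 of 9 with a median of -0.16. Their summed intensity was 2654 to 3531 in homozygous arrays and 3258 to 3407 in wild-type arrays. Six2, which keeps progenitors undifferentiated, differed by -0.19 (SE 0.17, unadjusted p = 0.285 in limma). Endothelial genes were below 0 in 10 of 10 with a median of -0.35, and proximal tubule genes in 8 of 8 with a median of -0.77. Their pair medians were -0.01 and 0.55, so the proximal tubule genes had the opposite sign there. Without homozygous replicate 9 the E17R2 medians were -0.23 for the renal vesicle, -0.04 for nephron progenitors, -0.21 for endothelium and -0.42 for proximal tubule.

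Stromal and mesangial genes, which share cells with Tcf21, were the kidney list with the opposite sign. Of 11 measured, 5 were higher at an unadjusted p under 0.05, against 454 of all 18193 genes, and the median was 0.41. The 2 below 0 were Foxd1, by -0.12 (SE 0.20), and Gata3, by -0.21 (SE 0.13). Pdgfrb differed by 0.13 (SE 0.18), so the rise was not common to the whole list. Pdgfra, a growth factor receptor of stromal cells, differed by 0.41 (SE 0.09) and the matrix protein Smoc2 by 0.49 (SE 0.11). The matrix proteoglycans decorin (Dcn) and lumican (Lum) differed by 0.57 (SE 0.17) and 0.91 (SE 0.28). The list's median was 0.17 and Lum differed by 0.57 without homozygous replicate 9. The summed intensity of the list was 17515 to 24903 in homozygous arrays and 14098 to 15597 in wild-type arrays, without overlap, as for the main Tcf21 probe set. In the R2E17 pair the list's median was -0.23, while the main Tcf21 probe set was higher by 0.16.

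Mesothelium and gonad also express Wt1. The mesothelial genes had a median difference of 0.85 in the E17R2 arrays, and 0.61 without homozygous replicate 9. Bnc1 and Upk3b were higher in all 3 homozygous than in any wild-type array, by 1.47 and 0.85, with unadjusted p-values of 0.0155 and 0.0332 in limma. Over all genes, 918 of 18193 were higher without overlap. The 5 mesothelial genes summed to 224 to 752 in homozygous arrays and 155 to 292 in wild-type arrays. The sum was highest in homozygous replicate 9, where Wt1 was lowest. The list did not share that peak evenly, as Upk1b measured 8.81 there, against 5.26 and 5.85 in homozygous replicates 2 and 8. Msln differed by -0.02 between the genotypes. In the R2E17 pair the 5 genes summed to 202 in the homozygous and 690 in the wild-type array. All 5 were lower there, Upk1b the most by -2.56, and their median was -0.84, the same sign as Wt1. The 9 gonadal genes summed to 274 to 702 in homozygous arrays and 249 to 343 in wild-type arrays, highest in homozygous replicate 2. Smooth muscle genes summed to 3733 to 35758 in homozygous arrays and 4674 to 5120 in wild-type arrays, and the highest value again was homozygous replicate 9. That array also had the lowest values for both Lmx1b probe sets, for Tcf21 1458887_at and for the proximal tubule list. The brain list named by the free-text labels summed to 183 to 249 in homozygous arrays and 184 to 242 in wild-type arrays.

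**Figure D5:**
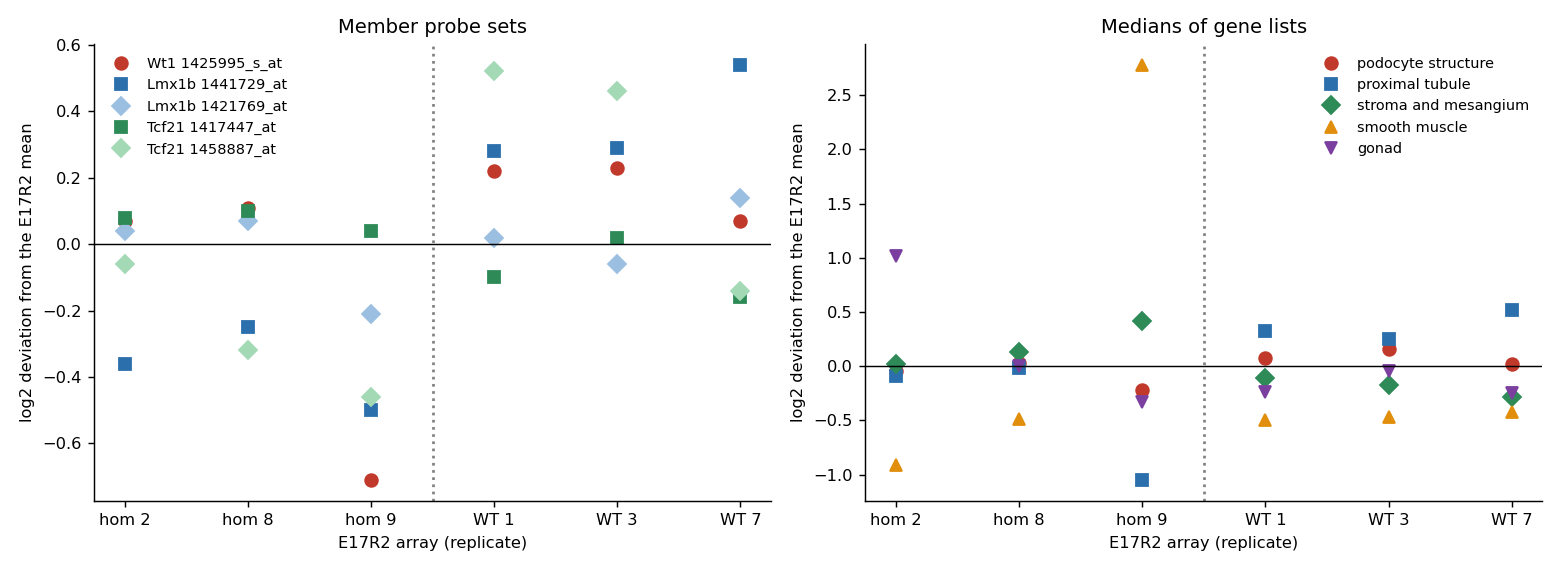
Deviation from the mean of the 6 E17R2 arrays on the log2 scale, by array, for the 5 probe sets (left) and for the medians of 5 gene lists (right). Homozygous replicate 9 lies lowest for Wt1 and for the proximal tubule genes (-1.05) and highest for smooth muscle genes (2.78), and the y axes differ.

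The genes whose pattern was most like each factor were named by Pearson correlation of log2 values, with the mean of each array set removed, over 11 arrays and 12164 genes with a mean percentile of 50 or more. The 11 arrays fall into 2 sets of different scale and share 2 genotypes, and these values are a description. Genes chosen by likeness share the factor's pattern through that choice, so the shared levels given below are no separate result. Wt1 was most like Brpf1, a chromatin reader (r = 0.995), Mecom, a zinc finger factor (0.984), Spire1 (0.974), Chka (0.972) and Mapk12 (0.972). Each of these was lowest in homozygous replicate 9, as Wt1 was. Lmx1b was most like Marchf6, a ubiquitin ligase (0.986), Pdk2, a pyruvate dehydrogenase kinase (0.975), Elmo1 (0.94), Ptpro (0.924) and Agxt2 (0.923), all of them lower in the homozygous than in the wild-type E17R2 arrays. Tcf21 was most like C1qtnf7 (0.928), the forkhead factor Foxs1 (0.89), Taf1b (0.871), Pknox2 (0.87) and Wdr53 (0.869). Among the factors themselves, with main probe sets, r was 0.582 for Wt1 and Lmx1b, -0.38 for Wt1 and Tcf21, and -0.656 for Lmx1b and Tcf21.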

How the data were processed

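RMA intensity values, on a linear scale, were deposited by the authors per the submitters' processing notes, which name no version here. The test design allowed for log2 values too. Intensities as deposited were turned into log2 values without adding a pseudocount. Control probe sets, 64 in number, were left out. The platform annotation gave 34945 of the other 45037 a single gene symbol and 932 of them several, and 9160 stayed unnamed here. A RefSeq table held the Entrez identifier of 34741, from which symbols were brought up to date, and no coordinates are given. Genes other than the 3 factors were each read from their brightest probe set by mean log2 value.

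Differences were fitted with lmFit and eBayes of limma 3.58.1 (R 4.3.3), 2-sided, with Benjamini-Hochberg adjustment over all 45037 probe sets, after a run on simulated data. The E17R2 fit used those 6 arrays alone. Alternatives were other arrays in the fit, 1 probe set per gene, a filter at the 30th percentile, other scalings, trended and robust moderation, and each array left out. The 3 factors, and the 16 gene lists of 161 genes (151 measured), were chosen with earlier results of these data known. From each list the text could name the 4 genes with the smallest unadjusted p, since none passed the adjusted threshold of 0.05. For lists of other tissues it could also name the 3 brightest, and it names Robo2 and the 5 genes most like each factor. Synpo, Wt1os, Sulf1, Col4a5, Foxd1, Gata3 and Pdgfrb fall outside that rule. Synpo is a podocyte marker, and the others were added after their values were seen.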

Additional observations from a re-analysis of the deposited data

How the results depend on the processing

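No paired analysis was made, because the labels name no litter or other pairing of homozygous with wild-type samples. The replicate numbers alone do not show whether samples were paired. Adrenal sums were 4298, 1278 and 3672 in E17R2 replicates 1, 2 and 3, against 452, 413 and 509 in replicates 7, 8 and 9. No term for that split was fitted. Of the alternatives to the main values, 160 kept direction and side of the threshold, 11 reversed and 6 moved otherwise, and no reversed limma value had an adjusted p under 0.05. The E17R2 difference of Lmx1b 1441729_at stayed negative in all 13 alternatives, from -0.80 to -0.54, the last with the R2E17 pair added and a title series term. The unadjusted p of this probe set in limma ran from 5.76e-05 to 0.00891. The lowest came from the fit over all 11 arrays, which takes in the spread of the R2NB values. The fit with the title series term gave 0.01 for Lmx1b 1421769_at. The left-out range of that probe set was -0.12 to 0.02, and that of Wt1 was -0.50 to -0.08. Without wild-type replicate 7, 3 probe sets passed the adjusted threshold (Mrap, Cyp11b1 and A930009L07Rik, the first and last outside the naming rule; left-out range 0 to 3) and 3567 the unadjusted one (range 1526 to 3567). With 1 probe set per gene 1019 passed the unadjusted threshold, from fewer tests. Quantile normalization of all 11 arrays turned the difference between array sets to 0.04 for Wt1 and to 0.04 for Tcf21 1417447_at; with 1 array left out these ran from -0.20 to 0.21 and from -0.05 to 0.04. Without R2NB replicate 3 the R2NB difference of Wt1 was 0.02 (range -0.05 to 0.02). Centring arrays on their median moved the R2E17 pair of Tcf21 1417447_at to 0.25. Against the E17R2 arrays, the R2E17 pair alone gave rank shifts of 0.017 for Wt1 and 3.14 for Lmx1b 1421769_at (exact permutation p = 0.286). Homozygous arrays alone gave 2.98 for Lmx1b 1441729_at (exact permutation p = 0.0286, the smallest possible there). They also gave 2.29 for Tcf21 1458887_at and -0.239 for Tcf21 1417447_at. The share of all probe sets separated among the homozygous arrays was not computed. The cause was not tested for any of these. With 3 arrays a genotype, and 1 in the pair, the precision is limited. The E17R2 difference of the dim Lmx1b 1421769_at lay within its spread.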
